A study of Arabidopsis thaliana with 18 samples.

Results

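The splicing factor genes *RS40* (AT4G25500), *RS31a* (AT2G46610), *RS31* (AT3G61860) and *RS41* (AT5G52040) form the RS subfamily of the Arabidopsis serine/arginine-rich (SR) proteins. They were taken by their gene identifiers, with every event listed under them. This gave 5 events in 4 genes, of 399 events in 334 genes in the deposited table of alternative splicing (AS). *RS40* had an exon skipping (ES) and an intron retention (IR) event, *RS31* and *RS41* had an ES event each, and *RS31a* had an alternative 5′ splice site (A5) event.

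The experiment addressed whether temperature-induced AS depends on the H3K36 methyltransferases SDG8 and SDG26, which the knock-out lines *sdg8-2* and *sdg26-1*, each with a T-DNA insertion, lack. The 6 groups were *sdg8-2* at 25 °C, *sdg8-2* at 16 °C, *sdg26-1* at 25 °C, *sdg26-1* at 16 °C, WT (Col-0) at 25 °C and WT at 16 °C, with 3 biological samples each and 18 in all. All plants had grown for 5 weeks at 16 °C under 8 h light and 16 h dark, and the 25 °C groups were sampled 1 day after the move. A sample was the shoot apical meristem (SAM)-enriched tissue, with young leaves, of about 10 plants. Per the paper's methods, leaves had been taken off with forceps to enrich for the SAM. Stranded poly(A) libraries were made from the samples and sequenced as paired-end reads.

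SR proteins bind pre-mRNA and take part in the choice of splice sites. Members of the plant-specific RS subfamily carry RNA recognition motifs followed by a region rich in arginine and serine. Pre-mRNAs of SR genes are themselves alternatively spliced in plants, often in a long intron near the start of the coding region, and many of the resulting forms carry an early stop codon.

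Each value is a percentage of spliced in (PSI), written as a fraction from 0 to 1, the share of the transcripts of an event that carry the form set as reference. The sources used here do not say which form was the reference, so whether a higher PSI of an RS event means more or less of the longer transcript cannot be told from these values. PSI was estimated for each sample and for the pooled replicates of a condition, and the table holds the pooled estimate alone, 1 value per event and condition. It has 2 decimals, no replicate error and an unknown number of reads, so no difference below could be set against the spread between replicates or given a p-value. Rounding alone can move a difference by up to 0.01, and a difference of differences by up to 0.02. Differences of at least 0.1 were counted, and the share of all 399 listed events that had one is given for each comparison. All 399 listed events were called differentially spliced (DiS) by the authors in at least 1 genotype, so the table is a list of temperature-responsive events and not a sample of all events. Both mutants were set against the same WT values. Neither SDG8 nor SDG26 has a listed event, and PSI gives no expression level, so the mutations and the tissue could not be checked here.

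The 4 RS genes share a layout in the RefSeq annotation (TAIR10.1), in which the coding coordinates that the table gives for each of them were found. In the longest coding form of all 4, the longest intron follows 106 coding bases and comes before an exon with 113 coding bases. For *RS41* and *RS31a*, the coordinates in the table are those of another coding form, which starts within this long intron. *RS40* lies at chr4:13024498-13027484 on the forward strand, has 8 annotated transcripts and encodes 350 amino acids in its longest coding form, with the long intron at chr4:13025274-13026055 (782 bases). *RS41* lies at chr5:21130320-21133709 on the forward strand, has 7 transcripts and encodes 357 amino acids, and its long intron spans chr5:21131187-21132086 (900 bases). *RS31a* lies at chr2:19136566-19138762 on the reverse strand, has 4 transcripts and encodes 250 amino acids, and its intron spans chr2:19137682-19138386 (705 bases). *RS31* lies at chr3:22900050-22902395 on the reverse strand, has 1 transcript and encodes 264 amino acids, and its intron spans chr3:22901256-22902053 (798 bases). The genes fall into 2 close pairs. The coding sequences of *RS40* and *RS41* are 75.9% identical, those of *RS31* and *RS31a* 71.1%, and every other pair is between 47.9% and 51.6% identical.

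The annotated alternative transcripts of 3 of the genes differ within this long intron, the only part searched for alternative forms. Outside it, the longest coding form of *RS40* has an exon from 267 to 333 bases behind the gene start that other transcripts skip. Within the long intron, the following forms are annotated. *RS40* has a cassette exon at chr4:13025600-13025856 (257 bases), and *RS41* has one at chr5:21131562-21131887 (326 bases). *RS31a* has an exon that runs on to a downstream 5′ splice site, at chr2:19137831-19138386 (556 bases). Exons that run on in this way are also annotated in *RS40* (583 bases) and *RS41* (701 bases), up to the end of the cassette exon, with a stop after 60 codons in *RS40* and 55 in *RS41*. All stops given here are read from the start codon of the longest coding form. The other forms also meet a stop codon early. It comes after 38 codons with the *RS40* cassette exon, 50 with the *RS41* cassette exon and 53 with the longer *RS31a* exon. With the whole long intron retained, the stop comes after 60 codons in *RS40*, 55 in *RS41* and 53 in *RS31a*. Some transcripts of *RS40* and *RS41* instead retain only the part of the intron behind the cassette exon, and no stop was computed for them. RefSeq also has coding forms that start behind the early stops, within the long intron, at chr5:21131881 in *RS41* and chr2:19137858 in *RS31a*. No form was read from those starts. A transcript of *RS40* also begins within its long intron and behind the early stops, 1336 bases from the gene start. Its coding start was not examined. *RS31* has no alternative transcript in RefSeq. The table gives no positions of events within genes, so these annotated forms have the types of the listed events but were not matched to them.

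**Figure D1:**
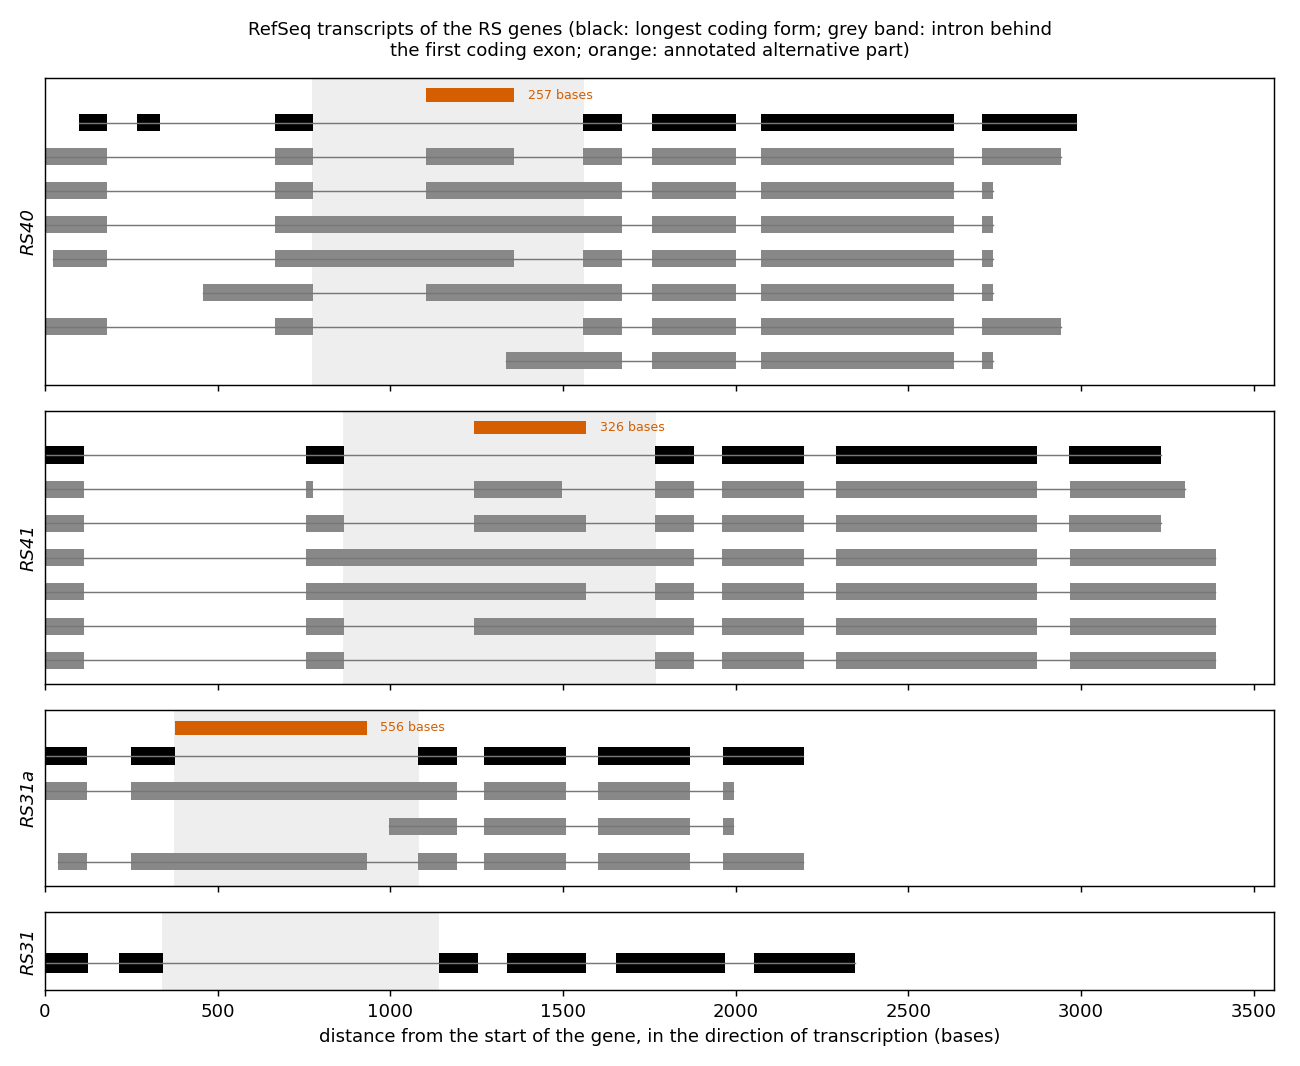
RefSeq (TAIR10.1) transcripts of the 4 RS genes, drawn to scale from the start of each gene in the direction of transcription, in bases. The longest coding form is black, other transcripts are grey, and the grey band is the long intron. The orange bar is an annotated alternative part of that intron, of 257 bases in *RS40*, 326 bases in *RS41* and 556 bases in *RS31a*.

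The splice sites that bound the long intron, and those of its annotated alternative parts, are shown because ES, IR and A5 events are choices among such sites. The sequences are RefSeq TAIR10.1, 5′ to 3′ on the strand of the gene. A 5′ site is given with 8 exon and 12 intron bases and a 3′ site with 20 intron and 6 exon bases, and capitals mark the first or last pair of bases of the intron.
RS40, 5′ site of the long intron, chr4:13025266-13025285: gaaagctgGTgagccttttt
RS41, 5′ site of the long intron, chr5:21131179-21131198: gaaagctgGTaagtcttggt
RS31a, 5′ site of the long intron, chr2:19138375-19138394: gaagtctgGTaaaacgtttt
RS31, 5′ site of the long intron, chr3:22902042-22902061: gaaatctgGTaaagtgtctt
RS40, 3′ site of the long intron, chr4:13026036-13026061: gctttttcttttttctccAGggtttg
RS41, 3′ site of the long intron, chr5:21132067-21132092: ccttttggttctctccccAGggtttg
RS31a, 3′ site of the long intron, chr2:19137676-19137701: gagtttttgttttcttgcAGgttatg
RS31, 3′ site of the long intron, chr3:22901250-22901275: tgtgctttcttttgttgcAGgatatg
RS40, 3′ site before the cassette exon, chr4:13025580-13025605: ccgcattttctttgacgcAGgatgtg
RS41, 3′ site before the cassette exon, chr5:21131542-21131567: aacatttgattttggcgcAGgatttg
RS40, 5′ site after the cassette exon, chr4:13025849-13025868: aatgcaagGTctgtaactgc
RS41, 5′ site after the cassette exon, chr5:21131880-21131899: aatgcaagGTctgtaaaact
RS31a, downstream 5′ site, chr2:19137819-19137838: tgatgcagGTgttgtatatt

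All 13 sites have the usual GT or AG. The windows at the 5′ site of the long intron share 16 of 20 bases between *RS40* and *RS41* and also between *RS31* and *RS31a*. At the 3′ site of the long intron, *RS40* and *RS41* share 20 of 26 bases and *RS31* and *RS31a* share 18 of 26. The longest run of bases found in both introns, 34 bases at chr4:13025831-13025864 and chr5:21131862-21131895, crosses the 5′ site behind the cassette exon. A window of 30 bases within it, with 22 exon and 8 intron bases and the first intron bases in capitals, reads alike in both genes.
RS40 and RS41, end of the cassette exon, chr4:13025835-13025864 and chr5:21131866-21131895: catattaattccataatgcaagGTctgtaa

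The longest such run between the introns of *RS31* and *RS31a* has 13 bases. Over the transcripts with the longest coding form, the longest run shared by *RS40* and *RS41* is 47 bases and that shared by *RS31* and *RS31a* is 18. Both are shorter than the read length in the study's methods. Transcripts that carry the alternative parts were not compared in this way. Genes on the other strand overlap the alternative parts. AT2G09740, annotated as a lncRNA, lies within the long intron of *RS31a* and shares 491 bases with the gene, and AT5G52045 shares 656 bases with *RS41*, part of its cassette exon included. AT4G25510 shares 42 bases with the end of *RS40*, and AT2G46600 shares 35 bases with the end of *RS31a*. The libraries were stranded, but no source used here says whether PSI was estimated with the strand. The part of these overlaps in the PSI of *RS31a* and *RS41* was not tested.

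*RS40* had the largest difference of the 4 genes between temperatures in *sdg8-2*, in WT it was level with *RS31a* within the rounding error, and both of its events were called by the authors in all 3 genotypes. The protein is an SR splicing factor that is also known in Arabidopsis for a part in the making of microRNAs. The PSI of the ES event was 0.61 at 25 °C and 0.82 at 16 °C in *sdg8-2*. It was 0.62 at 25 °C and 0.76 at 16 °C in *sdg26-1*, and 0.61 at 25 °C and 0.79 at 16 °C in WT. The 3 values at 25 °C were all below the 3 values at 16 °C, and the differences between 25 °C and 16 °C were −0.21 in *sdg8-2*, −0.14 in *sdg26-1* and −0.18 in WT. At 25 °C the genotypes lay within 0.01 of each other, whereas at 16 °C they spanned 0.06.

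The IR event of *RS40* had the opposite direction. In *sdg8-2*, PSI was 0.24 at 25 °C and 0.11 at 16 °C. It was 0.23 at 25 °C and 0.15 at 16 °C in *sdg26-1*, and 0.24 at 25 °C and 0.13 at 16 °C in WT. The PSI was thus higher at 25 °C in every genotype, by 0.13 in *sdg8-2*, 0.08 in *sdg26-1* and 0.11 in WT. As for the ES event, the genotypes lay within 0.01 at 25 °C and spread more at 16 °C, over 0.04, and the order of the genotypes at 16 °C was the reverse of that of the ES event. Both events belong to the same assembled locus, which holds no event of another gene. The ES and IR values summed to 0.85 at 25 °C in each of the 3 genotypes, and to 0.93 in *sdg8-2*, 0.91 in *sdg26-1* and 0.92 in WT at 16 °C. The reads behind the 2 events may overlap, so they are not independent measurements.

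An ES and an IR event with opposite directions also occurred elsewhere. Of the 399 listed events, 6 assembled loci held both types, *RS40* included. In 5 of the 6, every ES event differed between temperatures in the direction opposite to every IR event, in all genotypes. The other 4 such loci were those of AT1G10890, AT1G28330, AT2G38260 and the clock gene *PRR7* (AT5G02810), which were looked up after their values had been seen. The locus without this pattern was that of the SR gene *SCL33* and its neighbour AT1G55320.

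*RS31a* was the RS gene in which the genotypes differed most. Its product is a close relative of RS31. The PSI of the A5 event was 0.61 at 25 °C and 0.64 at 16 °C in *sdg8-2*. It was 0.42 at 25 °C and 0.67 at 16 °C in *sdg26-1*, and 0.51 at 25 °C and 0.68 at 16 °C in WT. The 16 °C values were alike, within 0.04, while the 25 °C values spanned 0.19, with *sdg8-2* highest and *sdg26-1* lowest. The PSI was lower at 25 °C in all genotypes, by 0.03 in *sdg8-2*, 0.25 in *sdg26-1* and 0.17 in WT. The authors called the event in *sdg26-1* alone. It is in the table through that call, so its listing favours a large difference in *sdg26-1* over the other genotypes. The WT difference of −0.17 was not called, although the *RS40* ES difference of −0.18 in WT was, and the read numbers behind either are unknown.

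*RS31* and *RS41* had temperature differences below 0.1 in every genotype, and both were called in *sdg8-2* alone. RS31 is an SR splicing factor whose gene is known in Arabidopsis for alternative splicing that responds to light. The PSI of its ES event was 0.72 at 25 °C and 0.81 at 16 °C in *sdg8-2*. It was 0.72 at 25 °C and 0.79 at 16 °C in *sdg26-1*, and 0.73 at 25 °C and 0.79 at 16 °C in WT. All values at 25 °C were below all values at 16 °C, as for the ES event of *RS40*, with differences of −0.09 in *sdg8-2*, −0.07 in *sdg26-1* and −0.06 in WT.

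RS41 is the closest relative of RS40 by its coding sequence, but the ES event of its gene went the other way. In *sdg8-2*, PSI was 0.87 at 25 °C and 0.81 at 16 °C. It was 0.86 at 25 °C and 0.83 at 16 °C in *sdg26-1*, and again 0.86 at 25 °C and 0.83 at 16 °C in WT. The difference of 0.06 in *sdg8-2* exceeded the rounding error, and so did the difference of 0.03 in *sdg26-1* and in WT. It was the only RS ES event with a higher PSI at 25 °C. Since the reference form was set for each event, the opposite sign does not show that the exon was used in opposite ways. Among all 40 listed ES events, the PSI was lower at 25 °C in 19 in *sdg8-2*, 17 in *sdg26-1* and 17 in WT, so neither direction was the usual one.

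**Figure D2:**
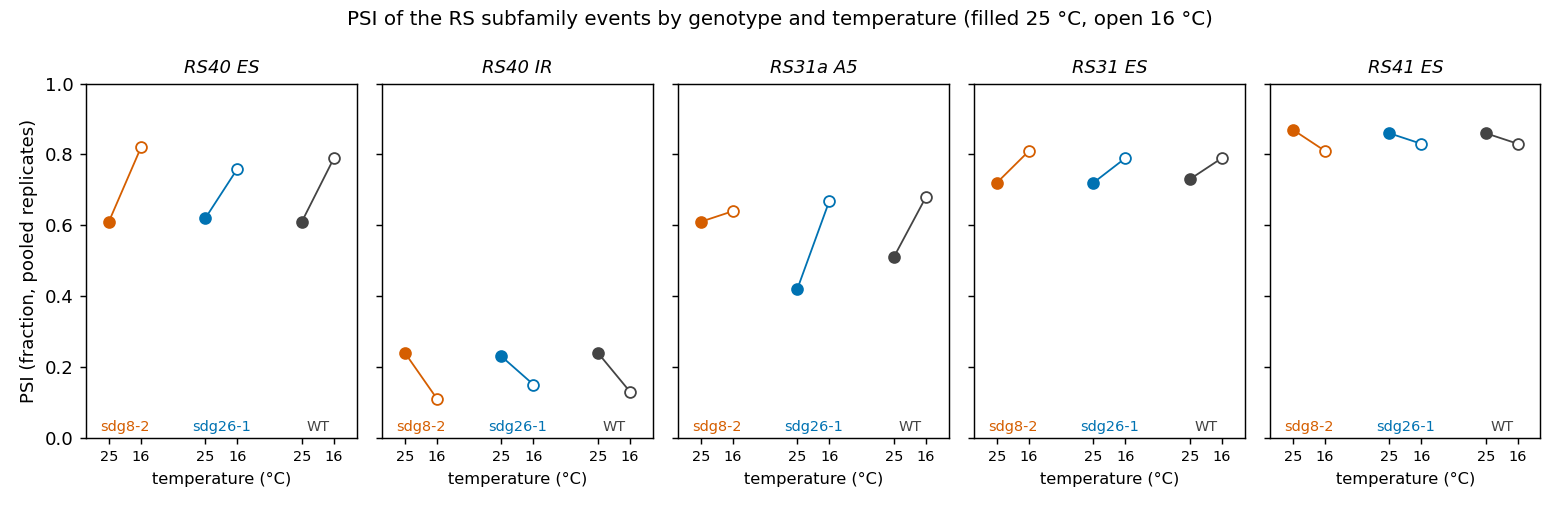
PSI (fraction, 1 value per condition from pooled replicates) of the 5 RS events, with 25 °C as filled and 16 °C as open points, joined within each genotype. The *RS40* points at 25 °C lie within 0.01 across genotypes for both events, and the *RS31a* points at 25 °C spread from 0.42 in *sdg26-1* to 0.61 in *sdg8-2*.

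Against the listed events as a whole, the RS events were not a group of large responses. A difference of at least 0.1 between 25 °C and 16 °C was found for 2 of 5 RS events in *sdg8-2* (*RS40* ES and IR), where 56.1% of all listed events had one. In *sdg26-1* it was found for 2 (*RS40* ES and *RS31a*), beside 59.6% of all, and in WT for 3 (both *RS40* events and *RS31a*), beside 51.1%. The median absolute difference of the RS events was 0.09 in *sdg8-2*, 0.08 in *sdg26-1* and 0.11 in WT, where that of all events was 0.11 in *sdg8-2*, 0.11 in *sdg26-1* and 0.1 in WT. By the authors' calls, 4 RS events were DiS in *sdg8-2*, beside 38.6% of all events, 3 in *sdg26-1*, beside 53.9%, and 2 in WT, beside 32.3%. Since only called events are listed, these counts describe the table.

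The 5 events took very different places when all events were ordered by the size of their temperature difference. The ES event of *RS40* exceeded 81.7% of listed events in *sdg8-2*, 62.2% in *sdg26-1* and 80.2% in WT. The ES event of *RS41* exceeded only 25.1% in *sdg8-2*, 6.52% in *sdg26-1* and 9.77% in WT. *RS31a* stood far apart in the genotypes, above 9.77% of events in *sdg8-2*, 89.2% in *sdg26-1* and 77.4% in WT. The IR event of *RS40* stood near the middle in WT, above 52.1% of events, and *RS31* stood in the lower part in each genotype, between 23.6% and 39.3%.

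**Figure D3:**
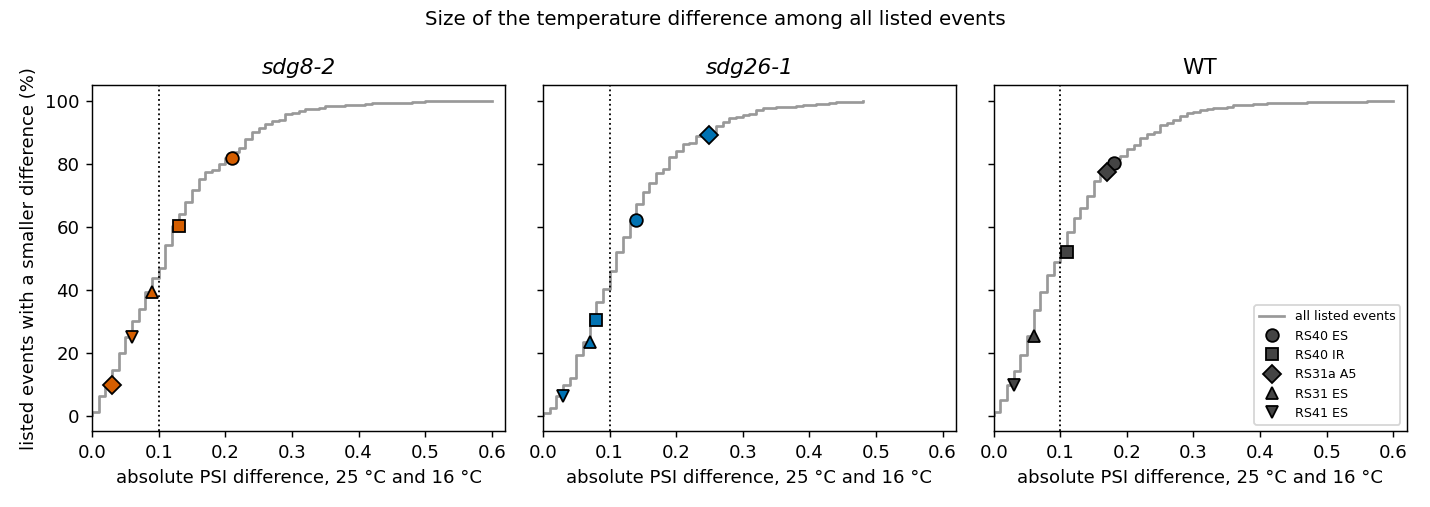
Absolute PSI difference between 25 °C and 16 °C (x axis, PSI units) against the percentage of the 399 listed events with a smaller difference (y axis), for each genotype. The grey line is all listed events, the dotted line is 0.1, and the symbols are the RS events, of which *RS31a* lies at 9.77% in *sdg8-2* and 89.2% in *sdg26-1*.

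The direction of the temperature difference was the same in *sdg8-2*, *sdg26-1* and WT in all 5 RS events, as it was in 84.0% of the listed events. The largest of the 3 absolute differences was that of *sdg8-2* in 4 of the 5 RS events and that of *sdg26-1* in 1. Over all listed events, *sdg8-2* had the largest in 34.8%, *sdg26-1* in 33.1% and WT in 25.8%. *RS31* and *RS41* were listed through their *sdg8-2* call and *RS31a* through its *sdg26-1* call, and these are the genotypes with their largest differences. For the ES event of *RS40*, called in all genotypes, the largest difference of −0.21 in *sdg8-2* and the smallest of −0.14 in *sdg26-1* came from the 16 °C values.

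At one temperature, few RS events differed from WT by at least 0.1 in either mutant, and few of all listed events did. With 5 RS events, such counts do not set them apart from the listed events. At 25 °C, only *RS31a* in *sdg8-2* differed from WT by at least 0.1, at 0.61 in *sdg8-2* and 0.51 in WT, a difference of 0.10. This was 1 of 5 RS events, beside 15.0% of all events. In *sdg26-1* at 25 °C no RS event reached 0.1, beside 9.52% of all, and the largest difference was again that of *RS31a*, at −0.09 from 0.42 in *sdg26-1* and 0.51 in WT. The 4 other RS events lay within 0.01 over the 3 genotypes at 25 °C, a range that 11.3% of all events had, and the median range of all events was 0.05.

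At 16 °C, no RS event of either mutant differed from WT by 0.1, where 18.3% of all events did in *sdg8-2* and 14.3% in *sdg26-1*. The largest differences were −0.04 for *RS31a* in *sdg8-2*, with 0.64 in *sdg8-2* and 0.68 in WT, and 0.03 in *sdg8-2* and −0.03 in *sdg26-1* for the ES event of *RS40*. The signs of both *RS40* events were opposite in the 2 mutants at 16 °C, with the IR event at −0.02 in *sdg8-2* and 0.02 in *sdg26-1*. These differences exceed the rounding error, but their error over replicates is unknown.

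The comparison that the design aims at is whether the temperature difference itself depends on the genotype. In *RS31a* the difference between 25 °C and 16 °C was −0.03 in *sdg8-2* and −0.17 in WT, a difference of 0.14 between the genotypes. In *sdg26-1* it was −0.25, which is −0.08 from WT, so the mutants departed from WT on opposite sides. The authors called the temperature difference of *RS31a* in *sdg26-1* alone, so neither the −0.03 nor the −0.17 was a called difference. *RS31a* in *sdg8-2* was the only RS event with a departure of at least 0.1, or 1 of 5, beside 26.1% of all events. In *sdg26-1* there were 0 of 5, beside 22.6% of all.

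In the other RS events the departures were small. The ES event of *RS40* had −0.03 in *sdg8-2* and 0.04 in *sdg26-1*, and its IR event had 0.02 in *sdg8-2* and −0.03 in *sdg26-1*. *RS31* had −0.03 in *sdg8-2* and −0.01 in *sdg26-1*, and *RS41* had 0.03 in *sdg8-2* and 0.00 in *sdg26-1*. In all 4 events, the sign in *sdg8-2* was that of a larger temperature difference than in WT, although that of the *RS40* IR event did not exceed the rounding error. In *sdg26-1* both *RS40* events had a smaller difference than in WT. *RS31* and *RS41* are listed only because of their call in *sdg8-2*. The median absolute departure of the RS events was 0.03 in *sdg8-2* and 0.03 in *sdg26-1*, and that of all events was 0.05 in *sdg8-2* and 0.04 in *sdg26-1*.

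**Figure D4:**
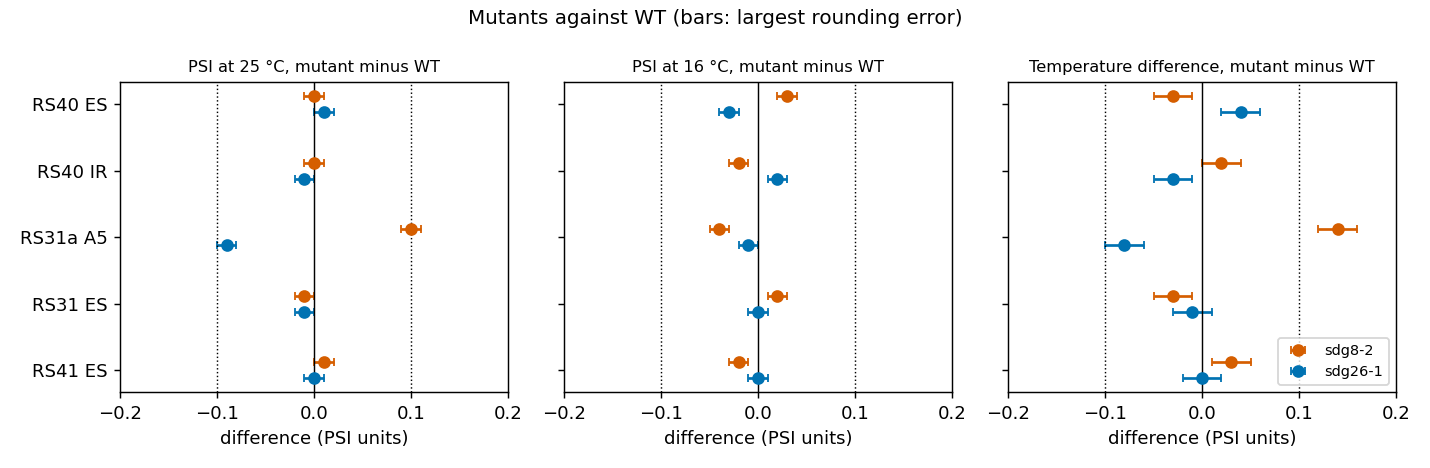
Difference of mutant minus WT, in PSI units, for the PSI at 25 °C, the PSI at 16 °C and the difference between temperatures, with *sdg8-2* in orange and *sdg26-1* in blue for each RS event. Bars are the largest error that rounding to 2 decimals allows and not a replicate error, dotted lines mark 0.1 on either side of 0, and *RS31a* stands apart with 0.14 in *sdg8-2* and −0.08 in *sdg26-1* for the difference between temperatures.

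Other genes of the splicing machinery were compared as 2 lists fixed by name, the 14 SR genes outside the RS subfamily and 36 other splicing and mRNA decay factors. Of the SR genes, 5 had 6 listed events. In *sdg8-2*, 4 of these were higher and 1 lower at 25 °C by at least 0.1, in *sdg26-1* 3 were higher and 2 lower, and in WT 3 were higher and none lower. The share of all listed events past 0.1 in either direction was 56.1% in *sdg8-2*, 59.6% in *sdg26-1* and 51.1% in WT. A share for each direction was not computed, so the split into higher and lower has no background. The median absolute difference of the list was 0.115 in *sdg8-2*, 0.165 in *sdg26-1* and 0.1 in WT, beside 0.11 in *sdg8-2*, 0.11 in *sdg26-1* and 0.1 in WT over all events.

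The A3 event (alternative 3′ splice site) of *SR30* (AT1G09140), which encodes an SR factor of the ASF/SF2 type, was at 0.25 in *sdg8-2*, 0.28 in *sdg26-1* and 0.33 in WT at 25 °C, against 0.13 in *sdg8-2*, 0.14 in *sdg26-1* and 0.16 in WT at 16 °C. In each genotype it was higher at 25 °C. That of *SR34* (AT1G02840), a relative of SR30, was at 0.33 in *sdg8-2*, 0.23 in *sdg26-1* and 0.23 in WT at 25 °C, against 0.22 in *sdg8-2*, 0.17 in *sdg26-1* and 0.17 in WT at 16 °C. *RS2Z33* (AT2G37340), which encodes an SR protein with zinc knuckles, had an A3 event at 0.89 in *sdg8-2*, 0.90 in *sdg26-1* and 0.90 in WT at 25 °C, against 0.78 in *sdg8-2*, 0.78 in *sdg26-1* and 0.77 in WT at 16 °C. Its genotypes lay within 0.01 of each other at either temperature, as those of the *RS40* events did at 25 °C only.

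*SCL33* (AT1G55310), which encodes an SC35-like factor, had the only ES event listed under a gene of this list, at 0.87 in *sdg8-2*, 0.87 in *sdg26-1* and 0.90 in WT at 25 °C, against 0.70 in *sdg8-2*, 0.68 in *sdg26-1* and 0.73 in WT at 16 °C. Unlike the ES events of *RS40* and *RS31*, it had a higher PSI at 25 °C. With unknown reference forms, this sign does not show an opposite use of the exon. The assembled locus of *SCL33* holds 3 ES and 2 IR events in all, and those listed under the neighbour AT1G55320 were not counted for the list. *SR34b* (AT4G02430), for another relative of SR30, had a pair of IR events that were lower at 25 °C. The first was at 0.64 in *sdg8-2*, 0.65 in *sdg26-1* and 0.72 in WT at 25 °C, against 0.77 in *sdg8-2*, 0.85 in *sdg26-1* and 0.79 in WT at 16 °C. The second was at 0.55 in *sdg8-2*, 0.54 in *sdg26-1* and 0.61 in WT at 25 °C, against 0.64 in *sdg8-2*, 0.75 in *sdg26-1* and 0.62 in WT at 16 °C. The largest difference of both was that of *sdg26-1*, the only genotype in which the authors called them, so their listing favours it, as for *RS31a*.

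Of the 36 other factors, 4 had 6 listed events. Those past 0.1 numbered 1 higher and 2 lower at 25 °C in *sdg8-2*, 2 higher and 3 lower in *sdg26-1*, and 2 higher and 2 lower in WT, with median absolute differences of 0.105 in *sdg8-2*, 0.135 in *sdg26-1* and 0.11 in WT. Over all events, 56.1% were past 0.1 in *sdg8-2*, 59.6% in *sdg26-1* and 51.1% in WT, with medians of 0.11 in *sdg8-2*, 0.11 in *sdg26-1* and 0.1 in WT. These shares hold for either direction, and none was computed for each direction. *U2AF65A* (AT4G36690) and *U2AF65B* (AT1G60900), for the large subunit of the factor that binds the polypyrimidine tract, each had an A3 event that was lower and an IR event that was higher at 25 °C in every genotype. The A3 event of *U2AF65A* was at 0.43 in *sdg8-2*, 0.55 in *sdg26-1* and 0.57 in WT at 25 °C, against 0.66 in *sdg8-2*, 0.69 in *sdg26-1* and 0.68 in WT at 16 °C, and its IR event at 0.46 in *sdg8-2*, 0.41 in *sdg26-1* and 0.39 in WT at 25 °C, against 0.29 in *sdg8-2*, 0.30 in *sdg26-1* and 0.28 in WT at 16 °C. The A3 event of *U2AF65B* was at 0.39 in *sdg8-2*, 0.41 in *sdg26-1* and 0.30 in WT at 25 °C, against 0.52 in *sdg8-2*, 0.54 in *sdg26-1* and 0.52 in WT at 16 °C, and its IR event at 0.64 in *sdg8-2*, 0.57 in *sdg26-1* and 0.59 in WT at 25 °C, against 0.57 in *sdg8-2*, 0.54 in *sdg26-1* and 0.44 in WT at 16 °C. Like *RS40*, both genes thus had a listed IR event with a higher PSI at 25 °C and a second event with a lower one. The second event was of type A3 here and ES in *RS40*. Since the reference forms are unknown, these signs do not show that splicing changed alike.

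*PTB1* (AT3G01150), which encodes a polypyrimidine tract-binding splicing regulator, had an ES event at 0.76 in *sdg8-2*, 0.66 in *sdg26-1* and 0.78 in WT at 25 °C, against 0.83 in *sdg8-2*, 0.83 in *sdg26-1* and 0.83 in WT at 16 °C. Its 16 °C values were equal, while that of *sdg26-1* was lowest at 25 °C. *AFC1* (AT3G53570), for a LAMMER kinase of the type that phosphorylates SR proteins, had an IR event at 0.34 in *sdg8-2*, 0.33 in *sdg26-1* and 0.22 in WT at 25 °C, against 0.26 in *sdg8-2*, 0.16 in *sdg26-1* and 0.19 in WT at 16 °C. The difference between temperatures was largest in *sdg26-1*, with a higher PSI at 25 °C. Both events were called in *sdg26-1* alone, and their listing favours that genotype.

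The events most like each RS event were taken as the 2 events of the same type in other genes with the smallest root mean square (RMS) difference over the 6 PSI values. For the ES event of *RS40*, these were among 37 ES events one of AT2G38260 (RMS 0.0449) and that of *PTB1* (RMS 0.0997). The same genes came nearest to *RS31*, with 0.0434 for *PTB1* and 0.0582 for another ES event of AT2G38260. The nearest to *RS41* were the ES events of AT3G63070 (0.0636), for a Tudor/PWWP domain protein, and AT4G33060 (0.0684), for a cyclophilin-like protein. The match to AT4G33060 is one of level only, since that event was lower at 25 °C, with 0.76 at 25 °C and 0.87 at 16 °C in *sdg8-2*.

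For the IR event of *RS40*, those of *UBC9* (AT4G27960), for a ubiquitin-conjugating enzyme, and *DRH1* (AT3G01540), for a DEAD box RNA helicase, were nearest of 154, with 0.0383 and 0.0543. The A5 event of *RS31a* had no such close match. The nearest of 72 were those of *TET10* (AT1G63260), for a tetraspanin, with 0.1108 and *RDR6* (AT3G49500), for an RNA-dependent RNA polymerase, with 0.1117, both farther from it than the nearest match of any other RS event. That of *RDR6* had the direction of *RS31a* in WT alone, and was higher at 25 °C in *sdg8-2*, with 0.54 at 25 °C and 0.49 at 16 °C, and in *sdg26-1*, with 0.53 at 25 °C and 0.50 at 16 °C. The likeness is over 6 pooled values and was not tested.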

How the data were processed

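Per the submitters' processing notes, reads were mapped with TopHat2 to TAIR10 and transcripts assembled with Cufflinks. Their versions: not given in the sources used here. Per the paper's methods, MISO estimated PSI in each sample and on merged replicates, the test used the merged ones, and a call needed a Bayes factor no lower than 5, a minimum of 20 isoform-specific reads in 2 or more replicates, and replicates closer to each other than the conditions were. The deposited PSI values are a fraction, normalized by the authors within each event. The authors' yes or no calls were used only where named, and their ΔPSI columns, 16 °C minus 25 °C, were not used. Depth per event and sample is unknown.

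Differences were computed as 25 °C minus 16 °C and mutant minus WT, and those of at least 0.1 were counted, with no test. The counting was tested on simulated data. The named genes were the 4 RS genes, every gene of 2 fixed lists (50 genes) with a listed event, and for each RS event the 2 most like events of its type, except for the other loci with ES and IR events. Members, lists and rule were chosen with earlier results of these data known. The alternatives used sizes of 0.05 and 0.2, rounding, log odds, the authors' calls, events of 1 type and 1 event per gene. Python 3.11.15 was used with pandas 2.3.3, numpy 2.4.6, scipy 1.17.1, Biopython 1.88 and matplotlib 3.10.9. Gene models and sequences are RefSeq TAIR10.1, and identity is from global pairwise alignments. The time-series RNA-seq and ChIP-seq were not analysed here.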

Additional observations from a re-analysis of the deposited data

How the results depend on the processing

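No paired analysis was possible because the deposited table holds only the estimate from merged replicates A to C, and for the same reason no replicate could be left out. Of the alternative values, 33 stayed within 1.5 times the count given above or within the exact 95% binomial interval of the share, and 21 did not. With 0.05 as the smallest difference, the RS events counted between temperatures were 4 in *sdg8-2* and 4 in *sdg26-1* (2 each at 0.1), and *sdg26-1* had 1 RS event that differed from WT at 25 °C and 1 whose temperature difference departed from that of WT (0 each at 0.1). With 0.2, the RS events between temperatures were 1 in *sdg8-2*, 1 in *sdg26-1* and 0 in WT, and *sdg8-2* had 0 against WT at 25 °C and 0 for the temperature difference (1 each at 0.1). The least difference that rounding allows left 0 RS events between *sdg8-2* and WT at 25 °C, since that of *RS31a* stands at 0.10. By the authors' calls, 4 RS events were counted in *sdg8-2*, beside 38.6% of all events. The median place of the RS events in *sdg8-2*, above 39.3% of listed events, was above 30.0% of events of the same type and above 33.8% by log odds. The SR list had 5 events in WT at 0.05, and 0 in *sdg8-2*, 2 in *sdg26-1* and 0 in WT at 0.2. The list of other factors had 6 in *sdg8-2* at 0.05, and 1 in *sdg8-2*, 0 in *sdg26-1* and 1 in WT at 0.2. The counts differ because the size counted differs, and the cause of the other shifts was not tested. Shares of all listed events past 0.05 and 0.2 were not computed, so the counts at those sizes have no background. Read depth is unknown, so what it limits cannot be given.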
